A study of Homo sapiens with 4 samples.

Results

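Replication-dependent histone genes were examined in p53 knockout and wild-type A375 melanoma cells. Members were the genes whose symbol names a histone of type H1, H2A, H2B, H3 or H4 in the HIST1, HIST2, HIST3 or HIST4 cluster, which gave 73 of the 26484 genes measured. Of these, 30 had 10 or more normalized counts in at least 1 library and are described one by one or in ranges, and 26 had 10 or more in at least 2 libraries and entered the test over all genes. By type, 3 of 6 H1 genes, 6 of 18 H2A genes, 11 of 20 H2B genes, 5 of 14 H3 genes and 5 of 15 H4 genes reached 10 normalized counts. The name used for the family is that of the clusters, although 2 of the 30, HIST2H2BA and HIST2H2BC, are annotated as transcribed pseudogenes.

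Replication-dependent histone genes supply the core histones and linker histone H1 that package newly made DNA, and their mRNA normally accumulates in S phase. Most of these mRNAs end in a conserved stem loop, bound by the protein SLBP, in place of a poly(A) tail. Some of the genes are also transcribed past the stem loop to a poly(A) site, and such transcripts have been described in differentiated or non-dividing cells.

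A375 is an established human melanoma cell line. RNA was sequenced from 2 libraries of a p53 knockout of this line, made with CRISPR-Cas9, and from 2 libraries of its p53 wild-type parent. The knockout libraries are called 2 and 8 and the wild-type libraries 1 and 2, after the columns that hold them. Whether libraries of 1 group are separate cultures or clones is not in the labels, and p-values cover only the spread between the libraries, which may be technical. Edited cells with intact p53 were not sequenced here, so loss of p53 and the editing or selection of cells cannot be told apart. RNA with a poly(A) tail was selected before sequencing, so the values concern the part of the histone RNA that this step retained.

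Recovered reads totalled 30334054 and 32160978 in knockout libraries 2 and 8, and 29230554 and 36331894 in wild-type libraries 1 and 2. Of 12 melanoma markers, MLANA and TYR were at 0 in every library. Of the 8 that entered the test over all genes, 5 were lower and 2 higher in both knockout libraries than in either wild-type library. Over all tested genes these shares were 23.7% and 22.8%. SOX10, a melanocyte-lineage transcription factor, had 28125 and 25662 normalized counts in knockout libraries and 30033 and 29587 in wild-type libraries. MITF, the main regulator of that lineage, was the 1 marker DESeq2 called, with 849 and 1050 normalized counts in knockout libraries against 1645 and 1562 in wild-type libraries (DESeq2 adjusted p = 0.00272, limma adjusted p = 0.237). MCAM, an adhesion molecule, had 34799 and 9721 normalized counts in knockout libraries against 11817 and 12262 in wild-type libraries. Summed markers of blood cells were 2487 and 1260 in knockout libraries against 1803 and 1571 in wild-type libraries, with HBB and HBA1 at 0 in every library. CD68 held most of this sum, with 2343 and 968 in knockout libraries against 1704 and 1448 in wild-type libraries. LYZ and ITGAM, the other tested blood markers, were higher in both knockout libraries than in either wild-type library. Summed fibroblast markers were 2338 and 1384 in knockout libraries against 1353 and 1299 in wild-type libraries, and COL3A1 did not exceed 1.10. PDGFRB and PDGFRA held most of this sum. PDGFRA had 1033 and 368 in knockout libraries against 355 and 284 in wild-type libraries, while the groups overlapped for PDGFRB. Summed epithelial markers were 7087 and 6804 in knockout libraries against 7742 and 7575 in wild-type libraries, with CDH1 at 0 in every library. KRT18 held most of this sum, with 6126 and 5569 in knockout libraries against 6548 and 6494 in wild-type libraries.

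The stem loop is the feature that sets this family's RNA apart from other mRNA. It was searched in the annotated transcripts (GENCODE 29, build GRCh38) on the transcribed strand, as GG, any 2 bases, CTTTT, any base, AG, any 2 bases and CC. It was found in 32 of the 73 members and in 16 of the 30 with 10 or more normalized counts. In 13 of these 16, the longest such transcript ran more than 300 bases past the stem loop. The stem loops of 7 members with values given below are shown with 5 bases on either side, and capitals mark the stem loop.
HIST2H2BE: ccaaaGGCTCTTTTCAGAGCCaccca
HIST3H2A: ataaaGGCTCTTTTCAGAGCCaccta
HIST1H2AC: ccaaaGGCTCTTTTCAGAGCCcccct
HIST1H2BG: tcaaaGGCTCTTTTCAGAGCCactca
HIST1H2BD: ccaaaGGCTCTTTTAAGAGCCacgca
HIST1H4E: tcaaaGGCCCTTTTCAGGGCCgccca
HIST4H4: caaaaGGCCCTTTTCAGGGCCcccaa
The commonest form, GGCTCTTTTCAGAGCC, stood in 17 members of types H2A, H2B and H3. The form in HIST1H4E and HIST4H4, with other paired bases in the stem, stood in 5 members, all of type H4. The annotated transcripts of HIST1H2BK (381 bases) and HIST1H1C (642 bases) cover little more than the coding sequence, so no match there says only that these letters are not in the annotated transcript.

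Histone promoters differed by histone type in the short motifs CCAAT and ATTTGCAT, and less in TATAAA. RefSeq promoter windows (GRCh38.p14, from 250 bases before to 50 after a gene's start) were found for 61 members, 26 of them among the 30, and gave 65 windows. CCAAT, on either strand, stood in 55 of 65 histone windows (84.6%) and in 34.6% of all 35116 promoter windows. It was present in every H1, H2A, H2B and H3 window and in 3 of 13 H4 windows. TATAAA, the core of the TATA box, stood in 43 histone windows (66.2%) and in 11.5% of all windows. By type, it stood in 50% of H1, 71.4% of H2A, 70% of H2B, 75% of H3 and 53.8% of H4 windows. ATTTGCAT, the octamer known from H2B promoters, stood in 27 histone windows (41.5%) and in 1.77% of all windows. Of those 27, 15 were among 20 H2B windows and 11 among 14 H2A windows, and H1 and H4 had 0. Windows of neighbouring genes can overlap, so they are not independent and the same octamer can be counted for both. HIST1H2AC and HIST1H2BC are such a pair. The HIST1H3D window that holds the octamer has the same coordinates as the HIST1H2AD window. No match of 1 of the 3 motifs overlapped a match of another. The windows of HIST2H2BE and HIST1H2BK, the H2B genes with the highest counts, and of HIST1H4E, which has the largest log2 difference between the groups among the 30, show the contrast. Capitals mark matches to the 3 motifs on either strand.
HIST2H2BE (chr1:149886633-149886932, minus strand): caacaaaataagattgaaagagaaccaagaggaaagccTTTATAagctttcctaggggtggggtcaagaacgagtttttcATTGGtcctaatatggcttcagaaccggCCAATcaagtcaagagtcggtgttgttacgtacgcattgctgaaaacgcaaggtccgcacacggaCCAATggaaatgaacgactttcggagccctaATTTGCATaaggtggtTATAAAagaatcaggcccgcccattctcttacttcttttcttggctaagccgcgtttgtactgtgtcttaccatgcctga
HIST1H2BK (chr6:27146806-27147105, minus strand): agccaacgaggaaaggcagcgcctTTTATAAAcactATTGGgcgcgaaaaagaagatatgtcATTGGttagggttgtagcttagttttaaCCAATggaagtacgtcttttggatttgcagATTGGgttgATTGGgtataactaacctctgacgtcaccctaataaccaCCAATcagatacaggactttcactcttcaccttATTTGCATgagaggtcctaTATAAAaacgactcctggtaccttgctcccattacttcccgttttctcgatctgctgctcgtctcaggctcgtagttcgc
HIST1H4E (chr6:26204360-26204659, plus strand): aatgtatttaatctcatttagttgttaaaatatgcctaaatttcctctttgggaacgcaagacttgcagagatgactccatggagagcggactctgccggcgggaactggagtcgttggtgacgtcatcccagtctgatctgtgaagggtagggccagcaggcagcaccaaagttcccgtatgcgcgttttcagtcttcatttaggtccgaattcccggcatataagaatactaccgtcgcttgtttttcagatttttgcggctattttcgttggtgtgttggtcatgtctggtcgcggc
The HIST2H2BE and HIST1H2BK windows each hold all 3 motifs. The HIST1H4E window holds none of them, which says only that these letters are not in it, since TATAAA stood in 7 of 13 H4 windows.

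Summed over all 73 members, with no filter on low values, histone RNA came to 2046 and 3004 normalized counts in knockout libraries 2 and 8, against 2078 and 1907 in wild-type libraries 1 and 2. Knockout library 8 was the highest, and knockout library 2 lay between the wild-type libraries, so the groups overlapped. The knockout mean was 1.27 times the wild-type mean. Taken singly, knockout library 2 was 1.03 times and knockout library 8 was 1.51 times the wild-type mean. Within the groups, knockout library 8 was 1.47 times knockout library 2 (95% exact interval 1.39 to 1.56), and wild-type library 2 was 0.918 times wild-type library 1 (0.863 to 0.977). These intervals cover counting error only: the reads carry no molecular identifiers, and several may stem from 1 molecule. The difference between the knockout libraries was larger than the difference between the group means. In bulk RNA, fewer cells making a transcript and less of it per cell cannot be told apart.

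By type, H2B genes held the most counts, 1041 and 1583 in knockout libraries 2 and 8 against 1059 and 919 in wild-type libraries 1 and 2. H2A genes summed to 497 and 690 in knockout libraries against 501 and 460 in wild-type libraries. H1 genes summed to 275 and 431 in knockout libraries against 295 and 277 in wild-type libraries. In these 3 types knockout library 8 stood apart from the other 3 libraries, which lay close together. H3 genes summed to 60.0 and 105 in knockout libraries against 65.8 and 75.4 in wild-type libraries. Knockout library 8 was the highest for H3 too, at 1.76 times knockout library 2 (1.26 to 2.47, counting error only). H4 genes summed to 174 and 194 in knockout libraries against 157 and 175 in wild-type libraries. For H4 knockout library 8 was again the highest, but the 4 libraries lay close together. Its ratio to knockout library 2 was 1.12 (0.906 to 1.38, counting error only). A single gene held much of some sums: HIST1H1C held 86.2% of the H1 counts, HIST3H2A 59.8% of H2A, HIST1H4C 55.3% of H4 and HIST1H2BK 45.4% of H2B. Without HIST1H2BK, the sum of the other 72 members was 1671 and 2200 in knockout libraries against 1615 and 1457 in wild-type libraries. Without HIST1H1C, the knockout-to-wild-type ratio of H1 was 0.899 in place of 1.23, and without HIST1H4C that of H4 was 1.45 in place of 1.11.

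**Figure D1:**
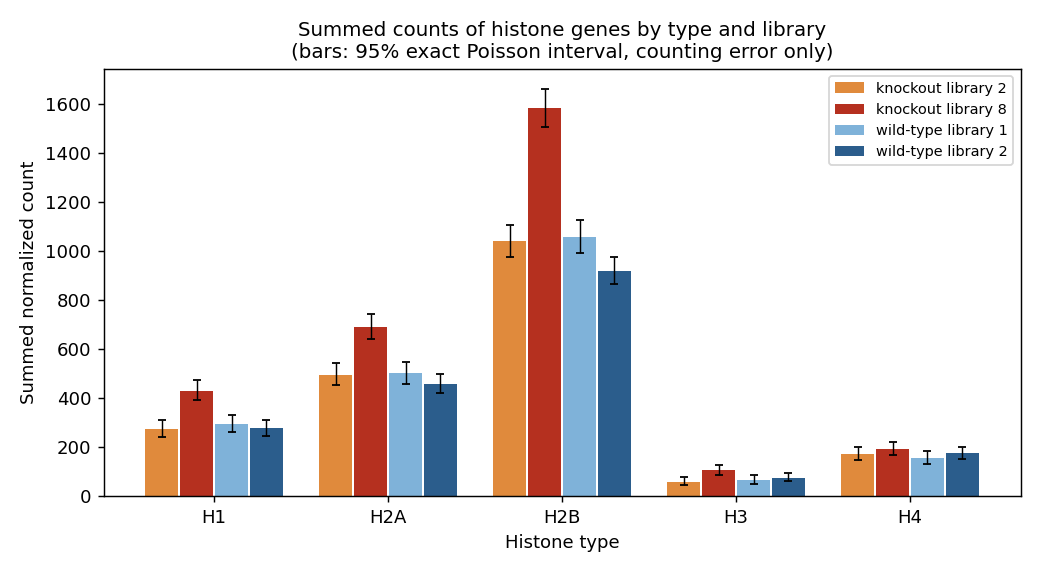
Summed normalized counts of the histone genes of each type (y axis) in knockout libraries 2 and 8 and wild-type libraries 1 and 2; error bars are 95% exact Poisson intervals and cover counting error only. Knockout library 8 is highest for every type, with 1583 for H2B against 1041 in knockout library 2.

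Among the linker histones, HIST1H1C, which encodes histone H1.2 (chr6:26055787-26056428, minus strand), had 242 and 380 normalized counts in knockout libraries 2 and 8 against 243 and 236 in wild-type libraries 1 and 2. Knockout library 8 alone stood out, and the limma log2 fold change of 0.34 ± 0.25 (SE) did not pass the test (adjusted p = 0.635). HIST1H1D, encoding H1.3, had 22.1 and 31.3 normalized counts in knockout libraries against 32.9 and 23.7 in wild-type libraries. These groups overlapped fully. HIST1H1E, encoding H1.4, had 9.47 and 17.6 normalized counts in knockout libraries against 18.6 and 14.0 in wild-type libraries.

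H2A genes encode the partner of H2B in the nucleosome. HIST3H2A (chr1:228456979-228457873, minus strand) had 281 and 401 normalized counts in knockout libraries 2 and 8 against 303 and 300 in wild-type libraries 1 and 2. The wild-type libraries agree within counting error, while knockout library 8 was 1.43 times knockout library 2 (1.22 to 1.67, counting error only), and the limma log2 fold change was 0.16 ± 0.21 (SE; adjusted p = 0.788). HIST1H2AC had 122 and 188 normalized counts in knockout libraries against 127 and 93.0 in wild-type libraries. Its limma log2 fold change of 0.48 ± 0.31 (SE) did not pass the test (adjusted p = 0.583), and knockout library 2 lay inside the wild-type pair. HIST2H2AC had 24.2 and 17.6 normalized counts in knockout libraries against 13.2 and 10.5 in wild-type libraries. HIST1H2AE had 21.0 and 18.6 normalized counts in knockout libraries against 12.1 and 18.4 in wild-type libraries. In both genes the groups did not overlap, although for HIST1H2AE knockout library 8 exceeded wild-type library 2 by little. In contrast to HIST3H2A, knockout library 2 was the higher of its pair in both, but within counting error. The ratio of knockout library 8 to 2 was 0.726 (0.369 to 1.41) for HIST2H2AC and 0.882 (0.445 to 1.74) for HIST1H2AE. HIST1H2AG had 15.8 and 29.3 normalized counts in knockout libraries against 17.5 and 8.77 in wild-type libraries, with overlap.

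H2B genes gave the most counts and the widest range. HIST1H2BK (chr6:27146418-27146798, minus strand) had 374.7 and 804 normalized counts in knockout libraries 2 and 8 against 463 and 450 in wild-type libraries 1 and 2. The knockout libraries stood on either side of the wild-type pair, which agreed within counting error, and the limma log2 fold change was 0.27 ± 0.38 (SE; adjusted p = 0.799). Knockout library 8 was 2.15 times knockout library 2 (1.89 to 2.44, counting error only), against 0.973 (0.853 to 1.11) for wild-type library 2 over wild-type library 1.

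HIST2H2BE, whose promoter and stem loop are printed above (chr1:149884459-149886652, minus strand), was the 1 member with a mean above 100 normalized counts whose groups did not overlap. It had 353 and 408 normalized counts in knockout libraries against 294 and 246 in wild-type libraries. Its limma log2 fold change was 0.50 ± 0.17 (SE; adjusted p = 0.393), and DESeq2 gave an adjusted p of 0.465. HIST1H2BD had 94.7 and 137 normalized counts in knockout libraries against 92.1 and 57.0 in wild-type libraries. These groups did not overlap either, although knockout library 2 exceeded wild-type library 1 by little and the wild-type libraries differed beyond counting error (ratio 0.619, 0.441 to 0.866), and the limma log2 fold change was 0.64 ± 0.34 (SE; adjusted p = 0.526).

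HIST1H2BG had 26.3 and 43.0 normalized counts in knockout libraries against 18.6 and 14.0 in wild-type libraries. The groups did not overlap, and the limma log2 fold change was 1.01 ± 0.39 (SE; adjusted p = 0.420). HIST1H2BC had 8.42 and 14.6 normalized counts in knockout libraries against 5.48 and 5.26 in wild-type libraries. It reached 10 only in knockout library 8 and was not tested. The pseudogene HIST2H2BA had 60.0 and 59.6 normalized counts in knockout libraries against 70.2 and 46.5 in wild-type libraries. The pseudogene HIST2H2BC had 37.9 and 25.4 normalized counts in knockout libraries against 25.2 and 25.4 in wild-type libraries. HIST2H2BF had 16.8 and 21.5 normalized counts in knockout libraries against 23.0 and 21.1 in wild-type libraries. None of these last 3 had a limma log2 fold change larger than its standard error. HIST1H2BD, HIST2H2BC and HIST2H2BF overlap a gene on the opposite strand, as does HIST1H2BN, so reads of both genes may be mixed where strand was not used in counting.

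H3 members were weakly represented. HIST1H3H had 10.5 and 28.3 normalized counts in knockout libraries 2 and 8 against 14.3 and 10.5 in wild-type libraries 1 and 2. HIST1H3E had 12.6 and 20.5 normalized counts in knockout libraries against 14.3 and 23.7 in wild-type libraries. Neither gene separated the groups. At such levels counting error is wide: 10 reads have a 95% exact Poisson interval of 4.80 to 18.4.

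H4 encodes the partner of H3. HIST1H4C (chr6:26103876-26104310, plus strand) had 94.7 and 87.9 normalized counts in knockout libraries 2 and 8 against 84.4 and 120 in wild-type libraries 1 and 2. It was not highest in knockout library 8, as HIST2H2BA was not, and wild-type library 2 was 1.42 times wild-type library 1 (1.07 to 1.91, counting error only). HIST1H4E (chr6:26204552-26206038, plus strand) had 13.7 and 20.5 normalized counts in knockout libraries against 7.67 and 3.51 in wild-type libraries. The groups did not overlap, and its limma log2 fold change of 1.51 ± 0.51 (SE) had an adjusted p of 0.391. HIST4H4, which lies alone on chromosome 12, had 21.0 and 27.3 normalized counts in knockout libraries against 16.4 and 12.3 in wild-type libraries, without overlap. HIST1H4K had 18.9 and 19.5 normalized counts in knockout libraries against 24.1 and 16.7 in wild-type libraries. Its annotated sequence is shared in full with other members over windows of 50 bases, so its reads may be split among copies.

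**Figure D2:**
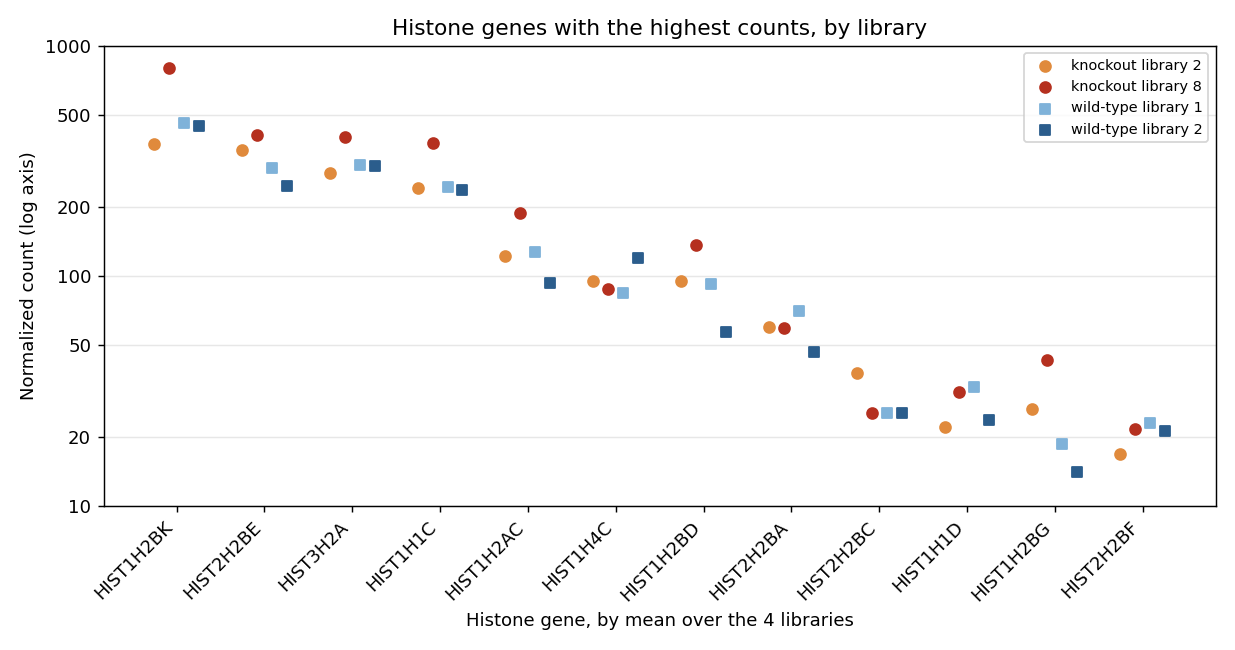
Normalized counts (log axis) of the 12 histone genes with the highest mean over the 4 libraries, with 1 point per library. HIST1H2BK reaches 804 in knockout library 8 against 374.7 in knockout library 2, while its wild-type libraries lie at 463 and 450.

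The order of levels between genes changes once exon length is taken into account. Per kilobase of annotated exon (GENCODE 29, since the annotation the authors counted on is not given in the sources used here), the mean over the 4 libraries was 1372 normalized counts for HIST1H2BK. It was 429 for HIST1H1C, 359 for HIST3H2A and 223 for HIST1H4C. HIST2H2BE, with its long annotated transcript of 2194 bases, came to 148 normalized counts per kilobase. HIST1H2BK and HIST1H1C have short annotated transcripts, so reads that ended beyond them may not have been counted.

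Of the 73 members, 15 were at 0 in every library and 28 were above 0 but stayed under 10. The 15 at 0 included 3 pairs of near-identical genes, HIST2H2AA3 with HIST2H2AA4, HIST2H3A with HIST2H3C and HIST2H4A with HIST2H4B, which share 97.1% to 100% of their annotated sequence. How reads that align to several places were counted is not given in the sources used here, so a 0 for these 6 genes is not a measurement of their RNA. Just inside the limit of 10, the highest library of HIST1H3D had 13.7, that of HIST1H2BC 14.6 and that of HIST1H2AM 15.3 normalized counts. Just outside it, the highest library had 8.79 for HIST1H2AK, 8.79 for HIST1H2BH and 7.81 for HIST1H2AI. HIST1H4H, HIST2H3D, HIST1H2BC and HIST1H3D reached 10 only in knockout library 8, and counts over the 30 are therefore a description.

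No member passed the test across all genes. limma called 0 of the 26 tested members at an adjusted p under 0.05, as it called 0% of the 15431 genes in either direction. At an unadjusted p under 0.05, limma had 2 members higher in knockout, HIST1H4E and HIST2H2BE, and 0 lower, against 5.85% higher and 6.16% lower among all genes. edgeR, run with its quasi-likelihood test on recovered reads, called 0 members and 0% of all genes. At an unadjusted p under 0.05, edgeR had 3 members higher and 0 lower, against 6.13% and 5.97% of all genes. DESeq2 called 0 of the 30, against 1.21% of 16330 genes higher and 1.22% lower, and had 1 member higher at an unadjusted p under 0.05 and 0 lower (5.25% and 4.7% of all genes).

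Both knockout libraries lay above both wild-type libraries in 8 of the 30 members (7 of the 26 tested), a share near the 22.8% found over all tested genes. Both lay below in 0 members, against 23.7% of all tested genes. The difference between group means exceeded the difference of the wild-type pair in 15 of 30 members, against 65.8% of all tested genes. It exceeded the differences of both pairs in 6 of 30, against 31.4%. The knockout pair differed by more than the wild-type pair in 16 of 30, against 74.4%. The median log2 difference, knockout minus wild type, was 0.27 over the 30 members, 0.03 without knockout library 8 and 0.48 without knockout library 2. Over all tested genes it was -0.0057, and over the 1352 tested genes with a mean of 10 to 30 it was 0.04. Over the 8 members with a mean of 50 or more the median log2 difference was 0.30, and over the other 22 it was 0.22.

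**Figure D3:**
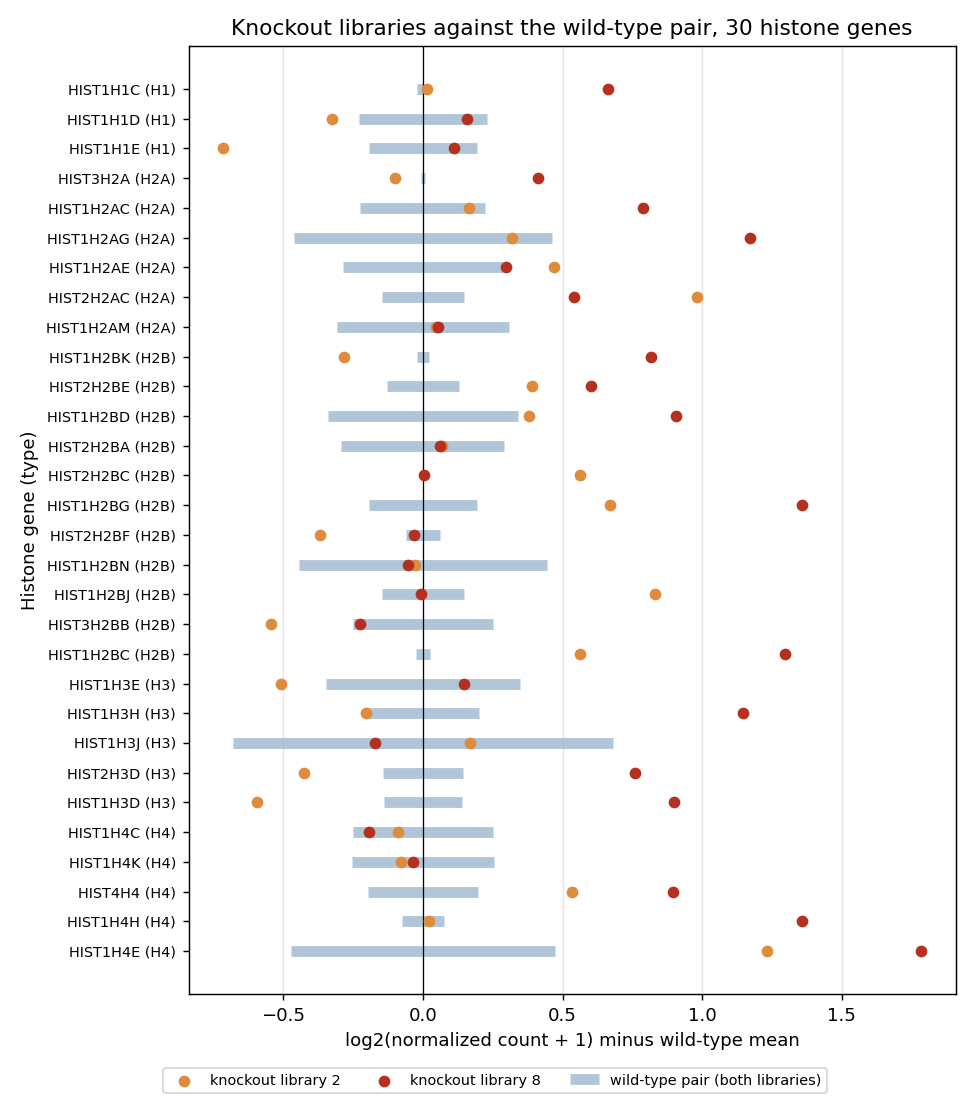
The log2(normalized count + 1) of knockout libraries 2 and 8 minus the wild-type mean (x axis) for the 30 histone genes with 10 or more normalized counts in any library, by type; bars span the wild-type pair. Knockout library 8 lies above both wild-type libraries in 17 genes and below both in 0, and knockout library 2 lies above both in 10 and below both in 10.

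The 2 knockout libraries did not behave alike. Knockout library 8 lay above both wild-type libraries in 17 of 30 members (13 of the 26 tested), against 40.2% of all tested genes, and below both in 0, against 40.8%. Knockout library 2 lay above both in 10 of 30, against 42.5%, and below both in 10, against 43.5%. Knockout library 8 was the highest of the 4 libraries in 15 of 30 members, 4 of which reached 10 only there. Among the 26 tested it was the highest in 11 (42.3%), against 26.2% of all tested genes, and among the 8 members with a mean of 50 or more in 6. Knockout library 2 was the highest in 4 of 30, against 33.7%. Knockout library 8 exceeded knockout library 2 in 22 of 30 members and in 18 of the 26 tested (69.2%), against 50.4% of all tested genes. The counting interval of that ratio lay above 1 in 9 members and below 1 in 0. Among the 9 were HIST1H3D and HIST1H4H, which reached 10 only in knockout library 8. The share over all genes was not computed for this count. The wild-type pair differed too: wild-type library 2 lay below wild-type library 1 in 25 of 30 members (21 of the 26 tested), against 50% of all tested genes. The counting interval of that ratio lay below 1 in 4 members and above 1 in 2, HIST1H4C and HIST1H3J, again without a share over all genes. The median log2 difference of wild-type library 2 minus library 1 was -0.30 over the 30 members, -0.39 over the 26 tested and -0.08 over tested genes with a mean of 10 to 30.

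Calls depended on which knockout library was kept. Without knockout library 2, limma called 8 of the 26 tested members higher and 0 lower, against 8.48% higher and 10.3% lower among all tested genes. These were HIST1H2BK (log2 fold change 0.82), HIST1H1C (0.66), HIST2H2BE (0.60), HIST1H2AC (0.79), HIST1H2BG (1.36), HIST1H2BD (0.91), HIST1H4E (1.78) and HIST3H2A (0.41). Without knockout library 8, limma called 0 of the 26, against 15.7% higher and 16.9% lower among all tested genes, and HIST1H2BK and HIST3H2A had log2 fold changes of -0.28 and -0.10. In each of these fits the lone knockout library was assumed to vary like the wild-type pair. Without either wild-type library, limma called 0 members and 0% of all genes.

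Small structured RNAs that carry no poly(A) tail, a list chosen after the data were seen, were set beside the histone genes. The sum of 11 such RNAs was 1170 and 1604 normalized counts in knockout libraries 2 and 8 against 1309 and 988 in wild-type libraries 1 and 2. RMRP, the RNA of an RNA-processing ribonucleoprotein, had 14.7 and 41.0 normalized counts in knockout libraries against 24.1 and 19.3 in wild-type libraries. RN7SK, which binds a transcription elongation factor, had 42.1 and 96.7 normalized counts in knockout libraries against 63.6 and 71.0 in wild-type libraries. RN7SL1, a signal recognition particle RNA, was highest in wild-type library 1, with 508 and 568 normalized counts in knockout libraries against 613 and 368 in wild-type libraries. RN7SL2, another such RNA, had 519 and 802 normalized counts in knockout libraries against 528 and 456 in wild-type libraries. RN7SL1 and RN7SL2 held most of the sum of the 11 RNAs. Knockout library 8 was the highest of the 4 libraries for 5 of the 11 RNAs and for 4 of the 6 with a mean of 10 or more, and it was the lowest for RNU5A-1. The sum of these RNAs ordered the 4 libraries as the histone sum did. In the histone sum, though, wild-type library 1 and knockout library 2 had overlapping counting intervals (1985 to 2173 and 1956 to 2139). Without HIST1H2BK, knockout library 2 stood above wild-type library 1 in that sum, with 1671 against 1615. The part of these RNAs in the histone differences was not tested.

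The other genes around the histone clusters are given beside the histone genes as a description, since both sets were chosen by different limits on counts. The 18 tested members on chromosome 6, in the large HIST1 cluster, had a median log2 difference from wild type of 0.03 in knockout library 2 and 0.23 in library 8. The 27 other genes within 1 Mb of that cluster with a mean of at least 100 had medians of -0.09 in library 2 and 0.02 in library 8. The 7 tested members on chromosome 1, named after HIST2 or HIST3 and not split by cluster, had medians of 0.07 in library 2 and 0.06 in library 8. Both medians are the values of the pseudogene HIST2H2BA (chr1:121108210-121117257), which lies outside the HIST2 cluster (chr1:149782689-149887916). Values of the 7 ranged from -0.54 (HIST3H2BB) to 0.98 (HIST2H2AC) in library 2. In library 8 they ranged from -0.23 (HIST3H2BB) to 0.60 (HIST2H2BE). Around HIST2 on chromosome 1, the medians of 23 neighbours were 0.07 in library 2 and -0.32 in library 8. Around HIST3 those of 15 neighbours were 0.07 in library 2 and -0.23 in library 8.

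Annotated poly(A) signals (AATAAA or ATTAAA in the last 40 bases of a transcript) were present for 14 of the 30 members and for 10 of the other 43. Members with such a signal summed to 1013 and 1349 normalized counts in knockout libraries 2 and 8 against 970 and 825 in wild-type libraries 1 and 2. Those without summed to 959 and 1569 in knockout libraries against 1051 and 1015 in wild-type libraries. These values describe the annotation and were not tested against each other.

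Many H2A and H2B genes stand head to head and share the sequence between their starts. Among such pairs with both genes among the 30, HIST1H2BC and HIST1H2AC start 219 bases apart and differed from wild type by 1.30 and 0.79 (log2) in knockout library 8. HIST1H2BC is among the 30 only through its value in that library. HIST1H2BG and HIST1H2AE, 283 bases apart, differed by 1.36 and 0.30, and HIST2H2BE and HIST2H2AC, 323 bases apart, by 0.60 and 0.54. HIST1H2BJ and HIST1H2AG, 292 bases apart, differed by -0.01 and 1.17, and HIST3H2A and HIST3H2BB, 234 bases apart, by 0.41 and -0.23. In knockout library 2 the values were 0.83 and 0.32 for HIST1H2BJ and HIST1H2AG, and -0.10 and -0.54 for HIST3H2A and HIST3H2BB. Each of these pairs had values of the same sign in that library.

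Of 26 genes for the transcription and 3′ end processing of histone mRNA, limma and DESeq2 called 0, and limma had 0 at an unadjusted p under 0.05. SLBP, which binds the stem loop, had 3198 and 2883 normalized counts in knockout libraries 2 and 8 against 2693 and 3010 in wild-type libraries 1 and 2 (limma log2 fold change 0.09 ± 0.10 SE, adjusted p = 0.737). NPAT, the coactivator of histone transcription, had 1001 and 1329 normalized counts in knockout libraries against 1262 and 1324 in wild-type libraries. Neither gene separated the groups. LSM10, a subunit of the U7 particle that guides the cut after the stem loop, had 971 and 824 normalized counts in knockout libraries against 850 and 972 in wild-type libraries. LSM11, its partner subunit, had 906 and 865 normalized counts in knockout libraries against 973 and 980 in wild-type libraries. CASP8AP2, a factor of histone locus bodies, had 1467 and 1082 normalized counts in knockout libraries against 1241 and 1353 in wild-type libraries. Of these 5, only LSM11 had groups that did not overlap, and its limma log2 fold change was -0.14 ± 0.09 (SE; adjusted p = 0.590).

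The 3 processing genes with the smallest limma p were CSTF2, ERI1 and UPF1. CSTF2, a 3′ end cleavage factor, had 2353 and 1983 normalized counts in knockout libraries against 1736 and 1865 in wild-type libraries. ERI1, an exonuclease that trims histone mRNA, had 961 and 981 normalized counts in knockout libraries against 820 and 877 in wild-type libraries. UPF1, a helicase of histone mRNA decay, had 5889 and 7216 normalized counts in knockout libraries against 7652 and 7622 in wild-type libraries. In all 3 the groups did not overlap, with limma adjusted p-values of 0.462, 0.502 and 0.521, but choosing by p favours such genes. Over the 26 genes both knockout libraries lay above both wild-type libraries in 6 and below both in 3, against 22.8% and 23.7% of all tested genes.

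Replacement histones are also made outside S phase, mostly from polyadenylated mRNA. Of 11 tested, limma and DESeq2 called 0, and limma had 0 at an unadjusted p under 0.05. H2AFX, the variant phosphorylated at DNA breaks, had 5939 and 3821 normalized counts in knockout libraries 2 and 8 against 3228 and 3631 in wild-type libraries 1 and 2 (limma log2 fold change 0.48 ± 0.23 SE, adjusted p = 0.495). H2AFZ had 9285 and 7754 normalized counts in knockout libraries against 7607 and 8229 in wild-type libraries. H2AFV, its close relative, had 5787 and 5179 normalized counts in knockout libraries against 4595 and 5071 in wild-type libraries. In all 3 of these H2A variants knockout library 2 was the highest, unlike the replication-dependent H2A sum. H3F3B, an H3.3 gene, had 18114 and 17917 normalized counts in knockout libraries against 17290 and 17804 in wild-type libraries, and H3F3A was listed at 0 throughout. CENPA, the centromeric H3, had 775 and 710 normalized counts in knockout libraries against 818 and 940 in wild-type libraries.

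Of 26 histone chaperones and modifying partners, limma and DESeq2 called 0. At an unadjusted p under 0.05, limma had 2 higher, HAT1 and DAXX, and 0 lower, against 5.85% and 6.16% of all tested genes. Both knockout libraries lay above both wild-type libraries in 7 of the 26 and below both in 3, against 22.8% and 23.7% of all tested genes. HAT1, which acetylates new H4, had 3202 and 2743 normalized counts in knockout libraries against 2261 and 2409 in wild-type libraries (limma adjusted p = 0.362). DAXX, an H3.3 chaperone, had 3251 and 3165 normalized counts in knockout libraries against 2701 and 2723 in wild-type libraries (limma adjusted p = 0.345). HIRA, the other main H3.3 chaperone, had 2129 and 2239 normalized counts in knockout libraries against 1924 and 1999 in wild-type libraries (limma adjusted p = 0.520).

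Of 24 S-phase genes, limma and DESeq2 called 0. At an unadjusted p under 0.05, limma had 2 higher, RFC4 and FEN1, and 0 lower, against 5.85% and 6.16% of all tested genes. Both knockout libraries lay above both wild-type libraries in 4 of the 24 and below both in 2, against 22.8% and 23.7% of all tested genes. RFC4, a subunit of the clamp loader, had 1499 and 1559 normalized counts in knockout libraries against 1153 and 1269 in wild-type libraries (limma adjusted p = 0.324). FEN1, the flap endonuclease, had 7094 and 5686 normalized counts in knockout libraries against 4703 and 5201 in wild-type libraries (limma adjusted p = 0.411). RRM2, a subunit of ribonucleotide reductase, had 10663 and 9055 normalized counts in knockout libraries against 7305 and 8656 in wild-type libraries (limma adjusted p = 0.462).

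Within each group the histone genes and the S-phase genes had medians of opposite sign. The median log2 difference of knockout library 8 minus knockout library 2 was 0.35 over the 26 tested histone genes, 0.50 over all 30 and -0.36 over the S-phase genes. That of wild-type library 2 minus wild-type library 1 was -0.39 over the 26 tested histone genes, -0.30 over all 30 and 0.17 over the S-phase genes. Processing genes, replacement histones and chaperones had medians of -0.08, -0.21 and -0.06 in the knockout pair and 0.07, 0.06 and 0.10 in the wild-type pair, on the side of the S-phase genes. HIST1H4C was the only member with a mean of 50 or more that followed the S-phase order in both pairs. The part of cell-cycle position in the histone differences was not tested.

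**Figure D4:**
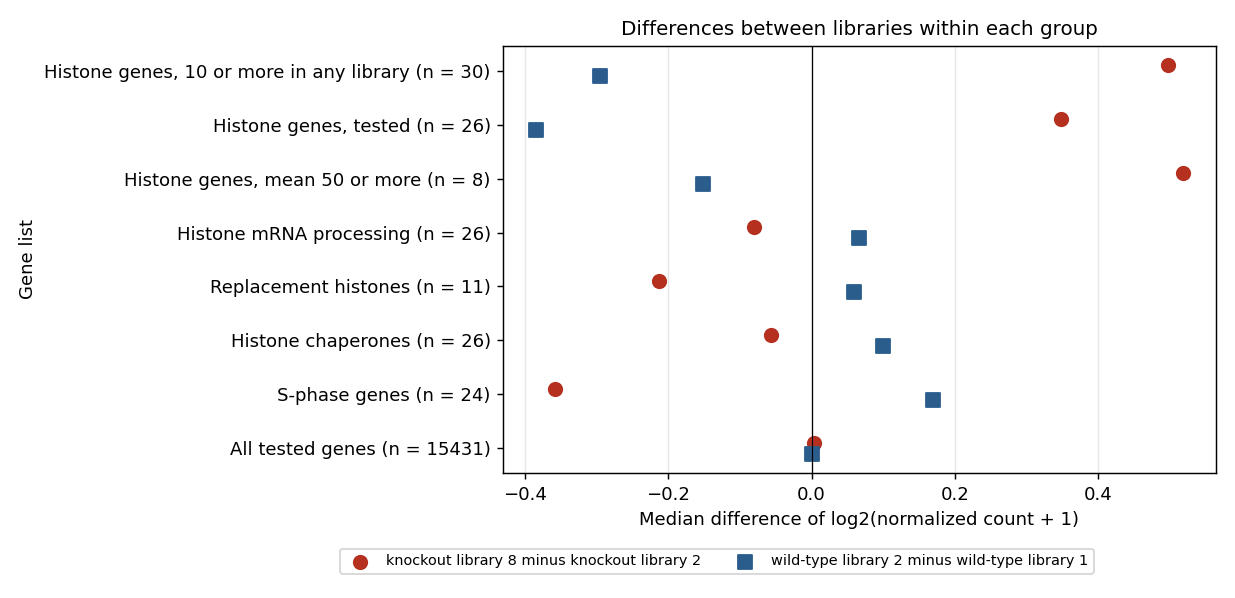
Median difference in log2(normalized count + 1) between the libraries of each group (x axis), knockout library 8 minus 2 and wild-type library 2 minus 1, for the histone genes, related gene lists and all tested genes. The 26 tested histone genes lie at 0.35 in the knockout pair and -0.39 in the wild-type pair, and S-phase genes at -0.36 and 0.17.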

How the data were processed

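Gene expression was measured by RNA sequencing of poly(A)-selected, strand-specific libraries, 2 of p53 knockout and 2 of wild-type A375 cells, grouped by the labels. The authors deposited 1 normalized signal per gene and library. As the values show, it is a read count divided by 1 size factor per library: 100% of values in each library were whole multiples of 1 step within 0.001, which gave back whole reads. The submitters' processing notes name build hg38 and the tools deepTools, DESeq2, HTSeq, Picard and STAR. Not given in the sources used here are their versions, the annotation, the strand setting and the handling of multiply aligned reads. Of the 30 members with 10 or more normalized counts, 4 overlap a gene on the opposite strand.

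The members and the gene lists were chosen with earlier results of these data known, and the lists are therefore no independent evidence. limma 3.58.1 was fitted with a trend on log2(normalized count + 1), two-sided, over 15431 genes with at least 10 normalized counts in 2 or more libraries, with p-values adjusted over all of them by the Benjamini-Hochberg method and a threshold of 0.05. Fold changes on this scale understate changes of genes with low counts. Alternatives were the edgeR 4.0.16 quasi-likelihood test and DESeq2 1.42.0 on recovered reads, a pseudocount of 0.1, other filters on low values, TMM and total-read scaling, and leaving out each library. With 2 libraries against 2, no exact permutation test was used, because its smallest possible p is 0.333. The fits were tested on simulated data. Ratios of reads between libraries have exact 95% intervals.

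Values in every library were given for the 12 members with the highest mean, members with an unadjusted limma p under 0.05 and those with the 3 largest differences without overlap; in the other lists, for the 3 genes with the smallest limma p and 8 genes fixed by name. Other members and the RNAs without a poly(A) tail were named after their values were seen. Stem loops and exons came from GENCODE 29 and promoters from RefSeq. The level of the targeted gene is not reported here.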

Additional observations from a re-analysis of the deposited data

How the results depend on the processing

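Another pseudocount, filter, scaling or member limit left 0 histone members called, and no named gene changed direction under these settings or tools. TMM and total-read scaling moved the median of all genes by -0.0054 and 0.0075 (log2). Over all genes limma called 0, while DESeq2 called 198 higher and 200 lower. Leaving out 1 library gave 0 to 2421 genes higher and 0 to 2602 lower, 0 to 8 histone members higher, and 0 to 29 genes of the 4 related lists higher and 0 to 6 lower, with the larger counts only where a knockout library was left out. The median log2 fold change then ranged over 0.035 to 0.48 for the 30 histone members, -0.029 to 0.15 for replacement histones, -0.020 to 0.11 for chaperones and -0.086 to 0.32 for S-phase genes. Over the 26 tested histone members the median without knockout library 2 was 0.23 in place of 0.48. Without HIST1H1C the H1 ratio was 0.899, and without HIST1H4C the H4 ratio was 1.45.

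Without a library in turn, 9 of the 32 genes named by rule changed direction, and 13 of the 26 tested members, among them HIST1H3H (1.15 without knockout library 2, -0.20 without library 8) and HIST1H1E (0.11 and -0.71), had values of both signs. The log2 fold changes of the 9 ranged over -0.28 to 0.82 for HIST1H2BK, -0.10 to 0.41 for HIST3H2A, -0.39 to 0.11 for HIST1H4C, -0.23 to 0.36 for HIST2H2BA and -0.32 to 0.16 for HIST1H1D. They ranged over -0.37 to 0.040 for NPAT, -0.14 to 0.10 for LSM10, -0.26 to 0.18 for CASP8AP2 and -0.029 to 0.23 for H2AFZ. The cause of these changes was not tested. Of the 30 members, 22 had a mean under 30 normalized counts, where counting error alone spans large ratios.

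No paired analysis was possible because the knockout columns are numbered 2 and 8 and so cannot be matched to labelled replicates.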
